A study of Mus musculus with 8 samples.

Results

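The clustered protocadherins are cell surface adhesion proteins encoded by 3 neighbouring gene clusters, alpha, beta and gamma, on mouse chromosome 18. Genes were taken by symbol, as the rows named Pcdha or Pcdhac, Pcdhb, and Pcdhga, Pcdhgb or Pcdhgc with a number, which gave 35 of the 19909 genes in the deposited tables. These were 1 alpha gene (Pcdhac2), 12 beta genes and 22 gamma genes, of which 12 are of the A type, 7 of the B type and 3 of the C type. GENCODE M21 annotates 57 such symbols, 13 alpha, 22 beta and 22 gamma. The other 12 alpha and 10 beta genes were not analysed here.

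Each clustered protocadherin has its own promoter and a large first exon that encodes the extracellular cadherin repeats, the transmembrane segment and the start of the cytoplasmic tail. In the alpha and gamma clusters this variable exon is spliced to constant exons shared by the whole cluster, whereas beta genes are single-exon genes without a shared tail. The proteins form combinations at the cell surface that recognise identical combinations on other cells, and they are best known from neurons, where CTCF, cohesin and DNA methylation at the promoters govern which isoforms a cell uses. The proteins themselves were not measured here.

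RNA was sequenced in bulk from haematopoietic stem cells (HSCs) of mouse bone marrow. All animals were homozygous for a reporter that fuses green fluorescent protein to LC3 (genotype Gfplc3/Gfplc3) and were sampled at steady state. LC3 sits on the autophagosome membrane and is degraded as autophagy runs, so low GFP marks high autophagy flux. The AThi libraries (3) held the 33% of HSCs with the least GFP from mice older than 24 months, and the ATlo libraries (3) held the 33% with the most GFP from the same 3 mice. The young libraries (2) held unfractionated HSCs of mice aged 8 to 12 weeks. AThi and ATlo libraries that share a tag in the column headers (O10, O11 or O12) are taken as 1 mouse, and the young libraries carry the tags D11 and D12. Because only the old cells were gated on GFP, age and gate cannot be told apart in either comparison with young HSCs.

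Values are normalized counts, that is reads divided by 1 factor per library. The libraries held 33960216 to 45830216 reads in AThi, 54512285 to 61341946 in ATlo and 44021141 to 45590508 in young. The 35 genes together took 0.0205% to 0.0272% of the reads outside ribosomal and mitochondrial genes in AThi libraries, 0.0133% to 0.018% in ATlo libraries and 0.0119% to 0.0142% in young libraries. All 11 HSC markers listed for the check were in the tables, with summed normalized counts of 131279 to 152421 in AThi, 98452 to 118764 in ATlo and 130658 to 131036 in young. The 6 B cell markers found in the tables stood apart in the libraries whose tag ends in 12, with a summed normalized count of 24001 in AThi O12, 10167 in ATlo O12 and 10799 in young D12, against 654 to 992 in the other 5 libraries. The 8 erythroid markers found in the tables were also highest in each group in these libraries, with 2681 in AThi O12, 4864 in ATlo O12 and 5785 in young D12, against 751 to 2542 in the others, and 1 was called higher in ATlo than in young. Results were therefore also fitted without those 3 libraries.

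Counts differed widely between the genes and were low for some, such as Pcdhac2, Pcdhb12 and Pcdhb5. Base means ran between 10.2 (Pcdhac2) and 608 (Pcdhb16), and reads summed over all libraries between 95 and 5146 per gene. All 35 genes had at least 50 reads in total. Per kilobase of exon that no other gene uses on the same strand, the normalized base mean was highest for Pcdhga5 (139), Pcdhb16 (116), Pcdhgb6 (108), Pcdhgb4 (98.5) and Pcdhga10 (85.1), and lowest for Pcdhac2 (3.38), Pcdhb5 (5.69), Pcdhb12 (6.18) and Pcdhb4 (9.31). Gamma genes ranged between 23.3 (Pcdhgc5) and 139 per kilobase.

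The 22 gamma genes share the constant exons, so only the variable exons tell them apart. The reads counted for the least abundant gamma gene bound what could have been counted for all 22 at once, and that gene had 22 to 91 reads per library. A median of 44.4% of the 50-base windows in a gamma transcript (26.9% to 65.3%) also occurred in another annotated clustered protocadherin. For beta genes the median was 4.26% and the maximum 12%. The gamma windows include the constant exons, so this share largely restates the point above. Pcdhga10, for example, had 2077 shared windows, and 2613 of its 4732 exonic bases were its own. Assignment of reads between gamma genes is therefore less certain than between beta genes.

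**Figure D1:**
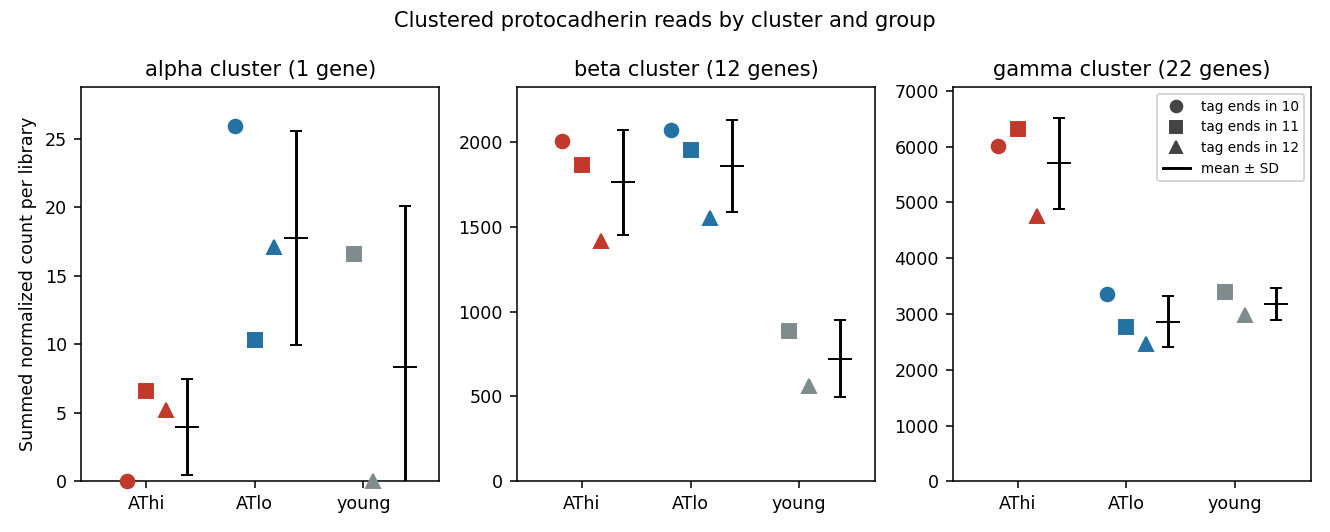
Summed normalized count (y axis, linear from 0) of the alpha, beta and gamma genes in each library, by group (x axis); symbols give the end of the library tag, and the bar beside them the mean and SD. Gamma sums were 4764 to 6317 in AThi libraries, above 2461 to 3387 in all ATlo and young libraries, and beta sums were 1414 to 2070.3 in old libraries, above 563 and 883 in young ones.

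The gamma cluster was about 2 times as abundant in AThi as in ATlo HSCs, and the beta cluster was at a like level in both. Summed over its 22 genes, the gamma cluster had 6019, 6317 and 4764 normalized counts in the AThi libraries O10, O11 and O12, against 3361, 2769 and 2461 in the ATlo libraries with the same tags and 3387 and 2977 in the young libraries D11 and D12. Every AThi library lay above every other library. The means were 5700.0 ± 824 in AThi, against 2864 ± 457 in ATlo (SD, n = 3 each), and 3182 ± 289.7 in young (SD, n = 2), which puts AThi at 1.99 times ATlo and 1.79 times young, and ATlo at 0.90 times young. In bulk RNA, a change in the share of cells that use a gene and a change in RNA per cell cannot be told apart. The sums describe the chosen genes and carry no test.

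Summed over its 12 genes, the beta cluster had 2007, 1864 and 1414 normalized counts in AThi O10, O11 and O12, against 2070.3, 1952 and 1554 in ATlo and 883 and 563 in young. The 6 old libraries overlapped between the fractions and all lay above both young libraries. Group means were 1762 ± 309 in AThi, 1859 ± 270.5 in ATlo (SD, n = 3 each) and 723 ± 226 in young (SD, n = 2). AThi was at 0.95 times ATlo and 2.44 times young, and ATlo was at 2.57 times young.

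The clusters therefore took different shares of the family in the 3 groups. Gamma genes made up 75%, 77.2% and 77.0% of the family's counts in the AThi libraries, 61.6%, 58.5% and 61.0% in the ATlo libraries and 79.0% and 84.1% in the young libraries. The beta genes made up 22.8% to 25.0% in AThi, 37.9% to 41.3% in ATlo and 15.9% to 20.6% in young. The ATlo libraries had the smallest gamma share and the largest beta share, with no overlap with the other groups.

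Within the gamma cluster, the ratio of AThi to ATlo was larger for the A and B types than for the C type. The A type, the subfamily with the most genes, averaged 2871 ± 502 in AThi, 1417 ± 185 in ATlo (SD, n = 3 each) and 1493 ± 171 in young (SD, n = 2), a ratio of 2.03 for AThi over ATlo. The B type averaged 2179.6 ± 334 in AThi, 1022 ± 229 in ATlo and 1428 ± 159 in young, a ratio of 2.13 for AThi over ATlo. The C type, whose members lie at the end of the cluster and are expressed more constitutively in neurons, averaged 649.7 ± 34.4 in AThi, 424 ± 102 in ATlo and 261 ± 40.1 in young. Its ratio was 1.53 for AThi over ATlo and 2.49 for AThi over young, and both old fractions lay above young in every library. The C type holds 3 genes that differed in AThi against ATlo. In the authors' deposited table the log2 fold change was 0.05 for Pcdhgc4, 0.89 for Pcdhgc3 and 0.82 for Pcdhgc5. The latter 2 lay within the ranges of the A type (0.45 to 1.39) and the B type (0.61 to 1.88). Differences between the types were not tested.

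**Figure D2:**
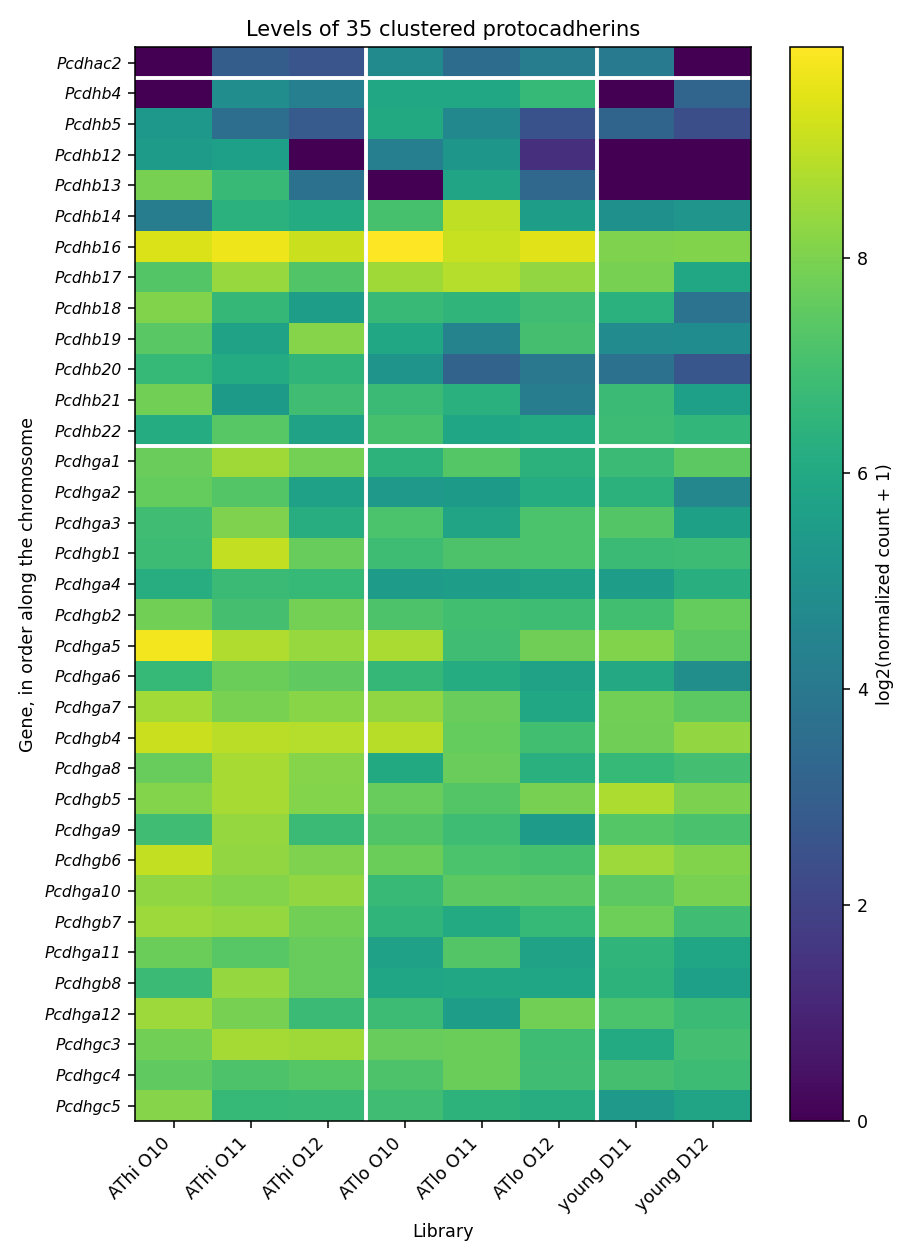
Level of each of the 35 genes (rows, in order along the chromosome) in each library (columns) as log2(normalized count + 1), with white lines between groups and clusters. Gamma genes were detected in all 8 libraries, while Pcdhac2, Pcdhb4, Pcdhb12 and Pcdhb13 were at 0 in 2 or 3 libraries each.

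The 1 alpha gene in the tables was near the limit of detection. The other 12 annotated alpha genes have no values here, so the level of the alpha cluster cannot be read. Pcdhac2, a C-type alpha gene, had 0, 6.61 and 5.23 normalized counts in AThi O10, O11 and O12, against 25.9, 10.3 and 17.1 in ATlo and 16.6 and 0 in young, from 95 reads in all. Each AThi library lay below each ATlo library, as in 10.9% of all genes, and the young libraries spanned both. Its log2 fold change for AThi against ATlo in the authors' deposited table was -2.15 (SE 1.80, unadjusted p = 0.231), with no adjusted p given.

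The first comparison asks how old HSCs with high autophagy differ from old HSCs with low autophagy. Pcdhgb7, Pcdhgb8, Pcdhgb6 and Pcdhga10, all gamma genes, were higher in AThi at an adjusted p below 0.05 in the authors' deposited table of DESeq2 Wald tests (called below). These are 4 of the 32 members with an adjusted p, and 0 of the 10 beta genes with one were called. Pcdhac2, Pcdhb5 and Pcdhb12 had no adjusted p and could not be called; of all genes with an adjusted p, 7.9% were called, 3.47% higher and 4.43% lower. The 4 lie among 5 consecutive genes of the cluster, Pcdhgb6, Pcdhga10, Pcdhgb7, Pcdhga11 and Pcdhgb8, whose variable exons start between positions 37742094 and 37761801 of chromosome 18 (GRCm38, plus strand). This grouping holds for the deposited calls only. The genes called with the mouse as a replicate block, given below, start between 37661793 and 37761801. The calls depend on the tool: edgeR's quasi-likelihood test, run on reads recovered from the normalized counts, called 0 of the 35 (lowest adjusted p = 0.0559, 9 at an unadjusted p below 0.05; 1.41% of all genes called).

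Pcdhgb7 (chr18:37751600-37841873, plus strand) had 360.1, 330.3 and 226 normalized counts in AThi O10, O11 and O12, against 91.1, 66.7 and 100.3 in ATlo and 214 and 118 in young. The AThi libraries lay above all others and both young libraries above all ATlo libraries. Its mean was 305 ± 70.4 in AThi, against 86.0 ± 17.4 in ATlo (SD, n = 3 each). The authors' deposited table gives a log2 fold change for AThi against ATlo of 1.83 (SE 0.40, adjusted p = 0.000313). With a DESeq2 refit that left out each of the 8 libraries in turn, Pcdhgb7 remained called every time (adjusted p 0.000185 to 0.0139), and it was also called without the 3 libraries tagged 12 (log2 fold change 2.13, DESeq2 adjusted p = 0.00719). With edgeR its adjusted p was 0.0559.

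Pcdhgb8 (chr18:37761801-37841870) had 109.8, 335 and 199 normalized counts in AThi O10, O11 and O12, against 58.1, 61.1 and 56.0 in ATlo and 86.2 and 48.6 in young. The AThi values spread widely and all lay above the other groups, while the ATlo values were nearly equal. GENCODE M21 annotates Pcdhgb8 as a polymorphic pseudogene and every other member as protein coding. The log2 fold change for AThi against ATlo was 1.88 (SE 0.53, adjusted p = 0.00902) by the authors' deposited table. The call was lost on leaving out AThi O11 or ATlo O12 (highest DESeq2 adjusted p = 0.173), without the 3 libraries tagged 12 (0.177), and with edgeR (0.11).

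Pcdhgb6 (chr18:37742094-37841873) had 524, 319 and 261 normalized counts in AThi O10, O11 and O12, against 211, 139.7 and 133 in ATlo and 364 and 269 in young. AThi and ATlo did not overlap, and the young libraries lay within the AThi range and above all ATlo libraries. According to the authors' deposited table its log2 fold change for AThi against ATlo was 1.19 (SE 0.38, adjusted p = 0.0275). The call was lost on leaving out AThi O10, AThi O11, ATlo O11 or ATlo O12 (highest DESeq2 adjusted p = 0.236), without the libraries tagged 12 (0.16), and with edgeR (0.15).

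Pcdhga10 (chr18:37746993-37841873) had 316, 271 and 322 normalized counts in AThi O10, O11 and O12, against 107, 171 and 168 in ATlo and 175 and 248 in young. AThi lay above the other groups and young above ATlo, without overlap. For this gene the authors' deposited table gives a log2 fold change for AThi against ATlo of 1.03 (SE 0.34, adjusted p = 0.0393). The call was lost in each of the 8 refits that left out 1 library (DESeq2 adjusted p 0.0549 to 0.168), without the libraries tagged 12 (0.393), and with edgeR (0.161).

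An annotated gene on the opposite strand overlaps this stretch. Gm26672, a processed transcript without a known role (chr18:37746559-37768242, minus strand), was picked out after its values were seen. It overlaps exons of Pcdhga10, Pcdhgb7, Pcdhga11 and Pcdhga12, and leaves 0 bases of the variable exon of Pcdhga10 and 1823 of 2594 own exonic bases of Pcdhgb7 free of annotation on either strand. Gm26672 had 615, 453 and 548 normalized counts in AThi O10, O11 and O12, against 212, 289 and 217 in ATlo and 371 and 349.5 in young. The order of the groups was that of Pcdhga10, without overlap. Its log2 fold change for AThi against ATlo was 1.17 (SE 0.26, adjusted p = 0.00043) by the authors' deposited table, a call that was lost with edgeR (0.056). The sources used here do not state whether counting used strand, so reads of Gm26672 and of the overlapping gamma genes cannot be told apart for certain. Pcdhgb6 and Pcdhgb8 do not overlap it in their exons.

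**Figure D3:**
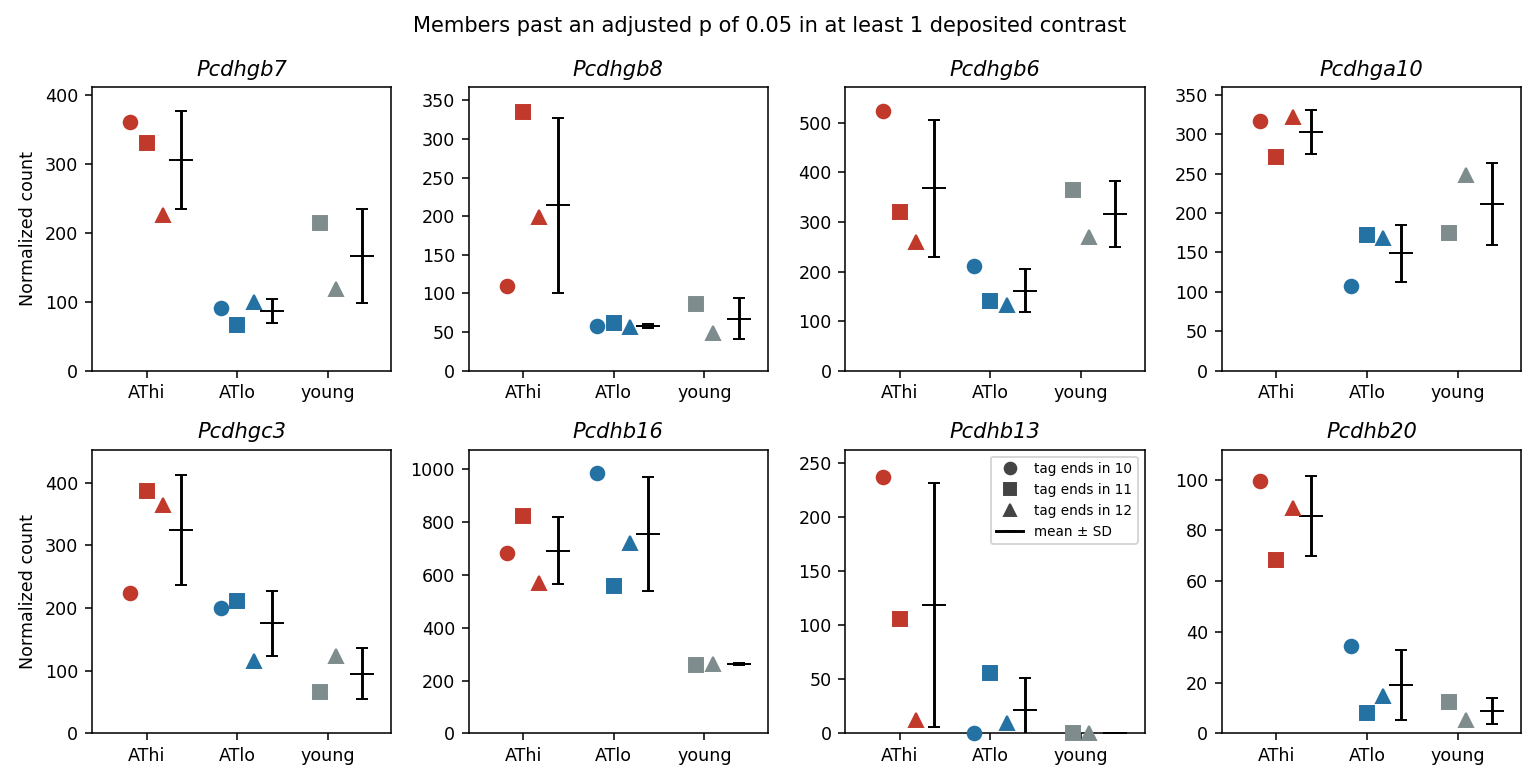
Normalized count (y axis, linear from 0, scaled per panel) of the 8 genes called in at least 1 comparison, by group (x axis); symbols give the end of the library tag, and the bar the mean and SD. AThi libraries lay above ATlo libraries for Pcdhgb7, Pcdhgb8, Pcdhgb6, Pcdhga10, Pcdhgc3 and Pcdhb20, and Pcdhb16 lay at 557 to 987 in old libraries, above 259.7 and 264 in young ones.

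The rest of the gamma cluster leaned the same way. All 22 gamma genes had a log2 fold change above 0 for AThi against ATlo in the authors' deposited table, where 52.1% of all genes did. The median in the authors' deposited table was 1.01 over the gamma genes (range 0.05 to 1.88) and 0.02 over all genes. An unadjusted p below 0.05 with higher AThi was given for 11 of the 22 in the authors' deposited table and for 9.39% of all genes, and 0 gamma genes had one with lower AThi (8.6% of all genes). In 10 of the 22, each AThi library was above each ATlo library, as in 10.3% of all genes: Pcdhga1, Pcdhga4, Pcdhga6, Pcdhga10, Pcdhga11, Pcdhgb5, Pcdhgb6, Pcdhgb7, Pcdhgb8 and Pcdhgc3. Because gamma genes share exons and sequence, they are not independent of one another.

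The comparison within each mouse gave the same lean. AThi was higher than ATlo for 19, 21 and 19 of the 22 gamma genes in mice O10, O11 and O12. The difference was positive in all 3 mice for 16 gamma genes, or 72.7%, against 21.1% of all genes, and negative in all 3 for 0. With the mouse as a replicate block, DESeq2 called 7 genes, all gamma and all higher in AThi, where 10.6% of all genes were called and 5.11% called higher. These were Pcdhga1, Pcdhga5, Pcdhga8, Pcdhgb4, Pcdhgb6, Pcdhgb7 and Pcdhgb8 (adjusted p 0.00225 to 0.039), and Pcdhga10 was no longer called (0.10). edgeR with the block called 0 of the 35 (lowest adjusted p = 0.0888, 12 at an unadjusted p below 0.05; 1.59% of all genes called).

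Among the gamma genes of highest base mean, Pcdhga5 had 883, 428 and 341 normalized counts in AThi O10, O11 and O12, against 410.1, 117 and 222 in ATlo and 264 and 173 in young. Its fractions overlapped through ATlo O10, and the authors' deposited table gives 1.14 on the log2 scale for AThi against ATlo (SE 0.50, adjusted p = 0.152). Pcdhgb4 had 575, 478 and 456 normalized counts in AThi, against 464, 191 and 123 in ATlo and 220.2 and 321 in young. ATlo O10 stood above the other ATlo libraries and inside the AThi range, and the log2 fold change in the authors' deposited table was 0.96 (SE 0.46, adjusted p = 0.21). In both genes the fractions differed in the same direction within every mouse.

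Pcdhgb5 had 277, 401 and 274 normalized counts in AThi O10, O11 and O12, against 200.4, 153 and 238 in ATlo and 426 and 256 in young. The fractions did not overlap, and young reached above AThi. Its log2 fold change for AThi against ATlo was 0.69 (SE 0.35, adjusted p = 0.259) by the authors' deposited table.

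The C-type genes were not alike. Pcdhgc3, the C-type gene with the widest known expression outside neurons, had 224, 386 and 364 normalized counts in AThi O10, O11 and O12, against 200.4, 210.4 and 116 in ATlo and 66.5 and 124 in young. Each AThi library was above all others. Its log2 fold change for AThi against ATlo was 0.89 (SE 0.42, adjusted p = 0.206) by the authors' deposited table. Pcdhgc4 had 184, 143 and 159 in AThi, against 141, 209 and 119.7 in ATlo and 127 and 111 in young. Here the fractions overlapped fully, with a log2 fold change of 0.05 (SE 0.39, adjusted p = 0.973) by the authors' deposited table, the smallest of the gamma genes. Pcdhgc5 had 281, 100.2 and 107 in AThi, against 118, 84.9 and 73.1 in ATlo and 39.5 and 54.9 in young. AThi O10 stood apart from the other AThi libraries, and the authors' deposited table gives 0.82 for AThi against ATlo (SE 0.56, adjusted p = 0.455).

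The beta genes were mixed between the old fractions. Of the 12, 7 had a log2 fold change above 0 and 5 below 0 for AThi against ATlo in the authors' deposited table, with a median of 0.28, and 0 of the 10 with an adjusted p were called, 1 with an unadjusted p below 0.05 in each direction. Pcdhb16, the member with the highest base mean before scaling to length, had 685, 822 and 571 normalized counts in AThi O10, O11 and O12, against 987, 557 and 721 in ATlo and 259.7 and 264 in young. The fractions overlapped and both lay above young. Its log2 fold change for AThi against ATlo in the authors' deposited table was -0.12 (SE 0.27, adjusted p = 0.88).

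Some beta genes leaned in opposite directions. Pcdhb20 had 99.5, 68.3 and 88.9 normalized counts in AThi O10, O11 and O12, against 34.6, 7.94 and 14.8 in ATlo and 12.5 and 5.28 in young. Each AThi library was above all others, with a log2 fold change for AThi against ATlo of 2.16 (SE 0.79, adjusted p = 0.0695) by the authors' deposited table. Pcdhb14 had 17.6, 80.4 and 69.0 in AThi, against 132, 509.7 and 46.6 in ATlo and 31.2 and 35.9 in young. ATlo O11 stood far above every other library, and the log2 fold change in the authors' deposited table was -2.04 (SE 0.82, adjusted p = 0.111); without ATlo O11 it was -0.68 (DESeq2 adjusted p = 0.811), without ATlo O12 -2.52 (0.0276), and without the 3 libraries tagged 12 -2.71 (0.0436). Pcdhb4 had 0, 28.6 and 18.8 in AThi, against 59.7, 60.3 and 101 in ATlo and 0 and 8.45 in young. The fractions did not overlap, and the authors' deposited table gives -2.21 for AThi against ATlo (SE 1.30, adjusted p = 0.358).

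**Figure D4:**
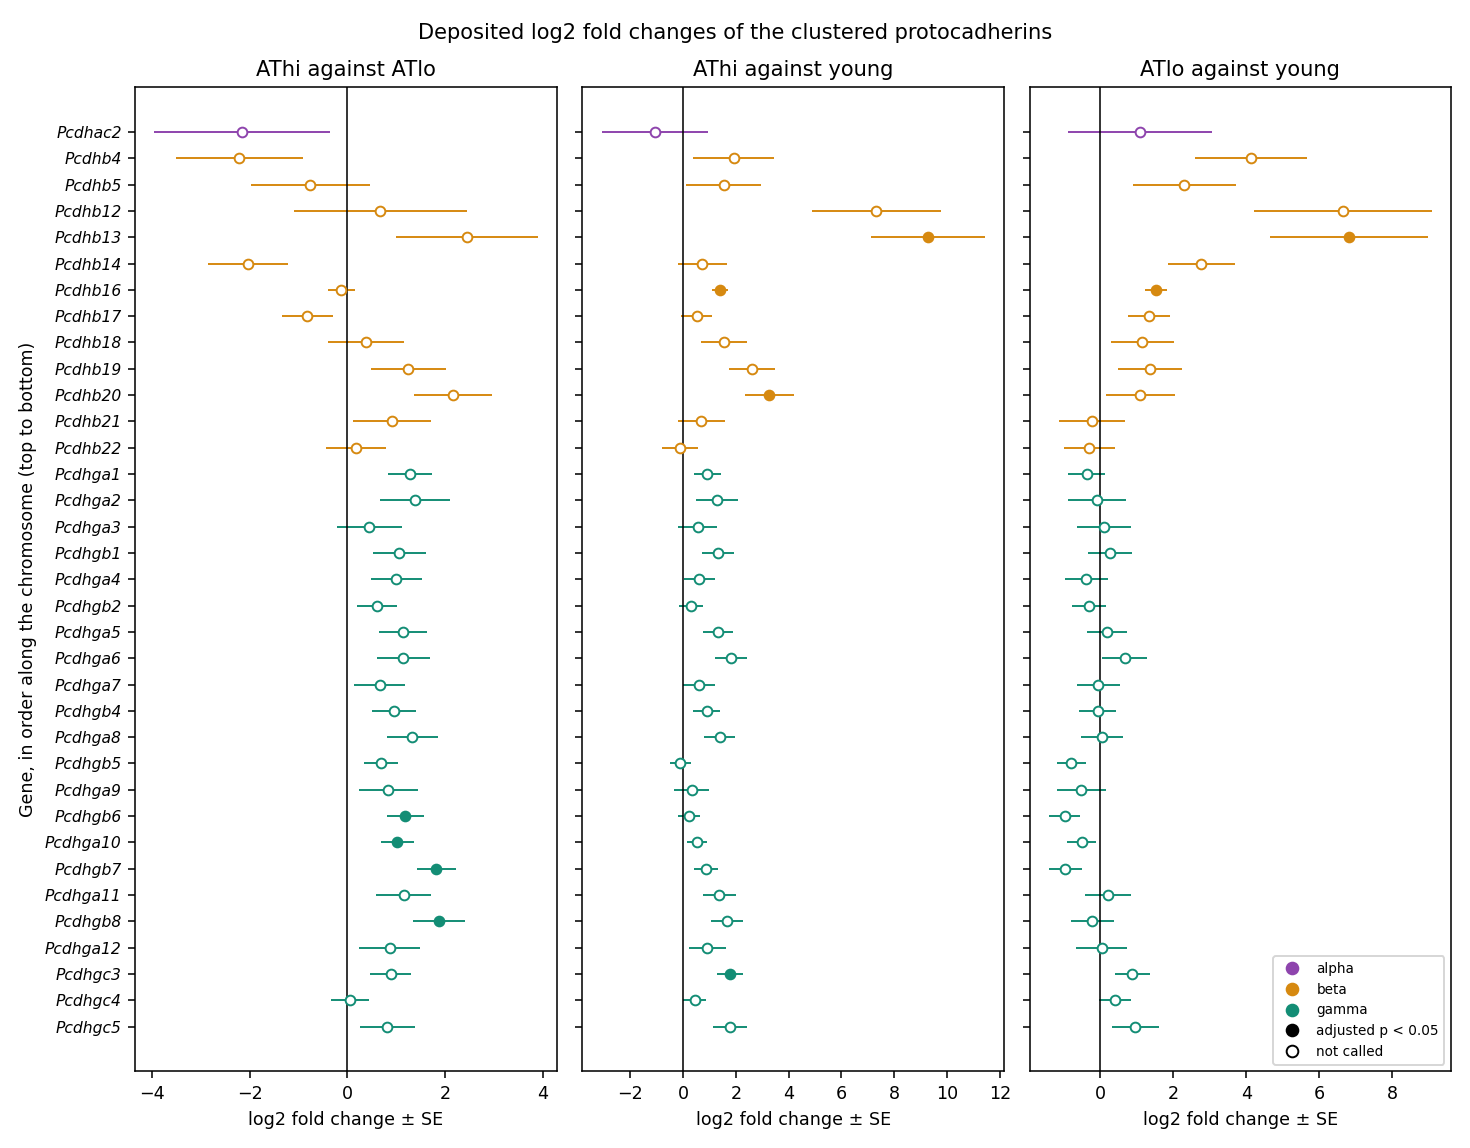
Log2 fold change with its standard error (x axis) of each gene (y axis, in order along the chromosome) for AThi against ATlo, AThi against young and ATlo against young, from the authors' deposited tables; filled points have an adjusted p below 0.05. All 22 gamma genes lie right of 0 for AThi against ATlo, 21 for AThi against young and 10 for ATlo against young.

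The comparisons with young HSCs ask what differs in each old fraction from young, unfractionated cells. Both use the same 2 young libraries, and their values are set side by side. In AThi against young, Pcdhb13, Pcdhb16, Pcdhb20 and Pcdhgc3 were called higher in the authors' deposited table, 4 of the 34 members with an adjusted p, with 5.04% of all genes called and 3.13% called higher. In ATlo against young, Pcdhb13 and Pcdhb16 were called higher in the authors' deposited table, 2 of the 34, with 4.34% of all genes called and 2.37% called higher. No member was called lower in either, where 1.91% and 1.98% of all genes were. edgeR called 0 of the 35 in both (lowest adjusted p = 0.0714 for AThi, with 12 at an unadjusted p below 0.05, and 0.0727 for ATlo, with 7; 1.21% and 0.653% of all genes called).

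Pcdhb16 (chr18:37477814-37483038), whose values are given above, averaged 693 ± 126 in AThi, against 755 ± 217 in ATlo (SD, n = 3 each), and 262 ± 3.04 in young (SD, n = 2). The log2 fold change in the authors' deposited table was 1.40 for AThi against young (SE 0.31, adjusted p = 0.000378) and 1.53 for ATlo against young (SE 0.31, adjusted p = 8.48e-05). The gene remained called in both comparisons whichever library was left out (highest DESeq2 adjusted p = 0.0262 and 0.0162) and without the 3 libraries tagged 12 (0.0376 and 0.0377). With edgeR the adjusted p was 0.0714 and 0.0727.

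Pcdhb13 (chr18:37442500-37446209) had 237, 106 and 12.6 normalized counts in AThi O10, O11 and O12, against 0, 55.6 and 9.33 in ATlo and 0 in both young libraries. Old libraries ranged widely, and ATlo O10 was at 0 like the young ones. Against a floor of 3 reads over the young group, AThi was at least 75.4-fold higher and ATlo at least 13.8-fold higher. These bounds rest on single libraries: they were 37.6-fold for AThi without AThi O10 and 2.97-fold for ATlo without ATlo O11, and without young D11 they were 37.4-fold for AThi and 6.83-fold for ATlo, close to those without young D12. Adjusted p-values in the authors' deposited table were 0.00097 for AThi against young and 0.0414 for ATlo against young. The call for AThi was lost on leaving out ATlo O12 (DESeq2 adjusted p = 0.0613), and that for ATlo remained in 2 of the 8 refits that left out 1 library. Both were lost without the libraries tagged 12 (0.41 and 0.679) and with edgeR (0.228 and 0.375).

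Pcdhb12, which lies next to Pcdhb13, was likewise at 0 in both young libraries, against 43.9, 48.4 and 0 in AThi O10, O11 and O12 and 18.9, 37.3 and 1.55 in ATlo, from 147 reads in all. The library AThi O12 was at 0 too. AThi was at least 19.6-fold and ATlo at least 12.2-fold higher than that floor for young (at least 9.72-fold and 6.07-fold without young D11, and 6.50-fold for ATlo without ATlo O11), and the authors' deposited table gives adjusted p-values of 0.0521 and 0.101.

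Pcdhb20 (chr18:37504264-37507822) averaged 85.6 ± 15.9 normalized counts in AThi, against 19.1 ± 13.8 in ATlo (SD, n = 3 each) and 8.87 ± 5.08 in young (SD, n = 2). In the authors' deposited table its log2 fold change was 3.27 for AThi against young (SE 0.93, adjusted p = 0.0138) and 1.10 for ATlo against young (SE 0.94, adjusted p = 0.681). The call was lost on leaving out AThi O10, AThi O11, AThi O12 or young D12 (highest DESeq2 adjusted p = 0.256), without the libraries tagged 12 (0.547) and with edgeR (0.153).

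Pcdhgc3 (chr18:37806364-37841873) averaged 325 ± 88.1 normalized counts in AThi, against 176 ± 51.9 in ATlo (SD, n = 3 each) and 95.0 ± 40.4 in young (SD, n = 2). The log2 fold change in the authors' deposited table was 1.78 for AThi against young (SE 0.48, adjusted p = 0.00732) and 0.89 for ATlo against young (SE 0.48, adjusted p = 0.384). The call for AThi was lost on leaving out AThi O11, AThi O12 or young D11 (highest DESeq2 adjusted p = 0.219), without the libraries tagged 12 (0.0618) and with edgeR (0.144). BC037039, annotated on the minus strand, overlaps part of its exons and had a base mean of 49.8. Pcdhgc5, the last gene of the cluster, had a log2 fold change of 1.78 for AThi against young in the authors' deposited table (SE 0.64, adjusted p = 0.082).

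Most beta genes leaned higher in both old fractions than in young. For AThi against young, 11 of 12 had a log2 fold change above 0 in the authors' deposited table, with a median of 1.54; for ATlo against young, 10 of 12 did, with a median of 1.45. The median over all genes in the authors' deposited table was 0.00 and 0.01. An unadjusted p below 0.05 was given for 5 of the 12 in AThi and 6 in ATlo, all higher than young, where 7.62% and 7.23% of all genes had one. In 4 beta genes each AThi library was above both young libraries (13.7% of all genes), and in 6 each ATlo library was (15.7%). Pcdhb22 had a log2 fold change below 0 in both comparisons, -0.11 and -0.29, in the authors' deposited table.

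Pcdhb17, a beta gene of high base mean, had 154, 342 and 152 normalized counts in AThi O10, O11 and O12, against 368, 454 and 323 in ATlo and 241 and 61.2 in young. ATlo lay above both young libraries, while AThi and young overlapped. Its log2 fold change was 0.52 for AThi against young (SE 0.59, adjusted p = 0.837) and 1.34 for ATlo against young (SE 0.58, adjusted p = 0.213) by the authors' deposited table. Pcdhb18 had 265, 96.9 and 47.1 in AThi, against 104, 88.9 and 119.7 in ATlo and 81.0 and 12.7 in young. Here too ATlo lay above both young libraries and AThi overlapped them, with 1.54 (SE 0.87, adjusted p = 0.443) and 1.16 (SE 0.87, adjusted p = 0.613) on the log2 scale in the authors' deposited table.

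Nearly all gamma genes leaned higher in AThi than in young, and about as many leaned higher as lower in ATlo against young. For AThi against young, 21 of 22 had a log2 fold change above 0 (50.0% of all genes) with a median of 0.91 in the authors' deposited table, and 8 had an unadjusted p below 0.05 with higher AThi (7.62% of all genes). In 13 gamma genes each AThi library was above both young libraries (13.7% of all genes). For ATlo against young, 10 of 22 were above 0 and 12 below (50.8% of all genes above 0) with a median of -0.06 in the authors' deposited table. Among them Pcdhgb5, Pcdhgb6 and Pcdhgb7 had an unadjusted p below 0.05, all lower in ATlo (7.06% of all genes), with log2 fold changes of -0.79, -0.97 and -0.95 in the authors' deposited table and adjusted p-values of 0.311, 0.213 and 0.277. Each ATlo library was below both young libraries for these 3 and Pcdhga10 (15.1% of all genes) and above both for Pcdhgb1 and Pcdhgc5, 2 of 22 (15.7% of all genes). The test of AThi against ATlo, given above, is the test of the difference between both comparisons for each gene.

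Megakaryocyte markers also differed between the ages. Of 7 listed, 6 were in the tables (not Gp6), and their summed normalized count was 9542 to 11310 in AThi, 9649 to 13828 in ATlo and 3700 to 4059 in young, with 3 called higher than young in AThi and 5 in ATlo. Of 8 endothelial markers, 6 were in the tables (not Cdh5 or Stab2), at 7289 to 9392 in AThi, 6110.5 to 7445 in ATlo and 9073 to 15230 in young, with 1 called higher and 2 lower than young in AThi, and 3 called lower than young in ATlo. Of 10 granulocyte and monocyte markers, 8 were in the tables (not Elane or Ccr2), with 0 called. Bulk RNA does not show whether the HSCs themselves or other cells carried these markers. Their part in the differences from young was not tested. Of 11 stromal and osteoblast markers, Col1a1, Col1a2 and Pdgfrb were in the tables, at 543 to 1287 in AThi, 525 to 1447 in ATlo and 419 to 724 in young, with 0 called. Between the old fractions, 3 of the 11 HSC markers were called higher in AThi and 0 lower, as was 1 endothelial marker, and the part of this in the gamma difference was not tested.

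Genes known to act on the clusters were read from a list of 30 regulators, 29 of them in the tables. For AThi against ATlo, 1 of the 29 was called higher and 2 lower in the authors' deposited table, where 3.47% and 4.43% of all genes were. Whether the list differs from all genes was not tested. Uhrf1, which brings the maintenance methyltransferase to replicating DNA, had 673, 745 and 745 normalized counts in AThi O10, O11 and O12, against 2139.5, 3420.1 and 2842 in ATlo and 1268 and 2896 in young. The fractions did not overlap, and in the authors' deposited table the log2 fold change of Uhrf1 in AThi against ATlo was -1.96 (SE 0.28, adjusted p = 1.01e-09). Dnmt1, that methyltransferase, had 4369, 5817 and 6677 in AThi, against 9925, 13792 and 12928 in ATlo and 7736 and 8692 in young. Young lay between the fractions, and the authors' deposited table gives Dnmt1 a log2 fold change of -1.12 for AThi against ATlo (SE 0.18, adjusted p = 8.63e-08). edgeR also called both (adjusted p = 0.0187 and 0.0211). Tet2, which oxidises 5-methylcytosine, was higher in AThi by 0.51 (SE 0.17, adjusted p = 0.0447) by the authors' deposited table, but not with edgeR (0.167).

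The architectural and silencing factors best known at these clusters were not called between the fractions by the deposited test. For AThi against ATlo the authors' deposited table gives log2 fold changes of -0.11 for the insulator protein Ctcf (adjusted p = 0.652), -0.22 for the cohesin subunit Rad21 (0.26), -0.29 for Smchd1, which silences clustered protocadherins in mice (0.276), and -0.17 for the de novo methyltransferase Dnmt3b (0.78). With the mouse as a replicate block, DESeq2 called Smchd1 lower in AThi (log2 fold change -0.31, adjusted p = 0.0263), but not Ctcf, Rad21 or Dnmt3b. edgeR without the block did not call Smchd1 (adjusted p = 0.376). Against young, 2 regulators were called lower in AThi (Uhrf1 and Tet1), and in ATlo 1 was called higher (Smc1a) and 3 lower (Tet1, Tet2 and Dnmt3a) in the authors' deposited table. edgeR kept none of these 6 calls (adjusted p 0.0651 to 0.206). Of all genes, the deposited test called 1.91% lower in AThi than in young. For ATlo against young it called 2.37% higher and 1.98% lower. A separate table of 726 upstream regulators, the authors' deposited table for AThi against ATlo, lists for RAD21 4 targets, written as human symbols, of which PCDHGA10, PCDHGB3 and PCDHGB7 are gamma protocadherins. The p of overlap in the authors' deposited table was 0.00762, with no activation score, and no mouse Pcdhgb3 is among the annotated genes. Pcdhga10 and Pcdhgb7 were themselves called in the same comparison, so this entry, 1 of 726, is not separate from those calls.

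Membrane partners, other cadherins and genes listed as neighbours of the clusters were counted in the same way. The shares of all genes called in each comparison are those given above. Of 24 partners and effectors at the membrane, 20 were in the tables, and 0 were called for AThi against ATlo in the authors' deposited table; Nckap1, a subunit of the WAVE complex that links protocadherins to actin, was called higher than young in both fractions, by 0.85 in each (adjusted p = 3.36e-06 in AThi and 4.2e-06 in ATlo). Of 24 non-clustered protocadherins and large cadherins, 6 were in the tables and 0 were called between the fractions in the authors' deposited table. Pcdh10 alone of these was called higher in AThi by DESeq2 with the mouse as a replicate block (log2 fold change 4.03, adjusted p = 0.0139). edgeR without the block did not call it (adjusted p = 0.293). Fat1, an atypical cadherin, was higher than young by 2.51 in AThi and 2.40 in ATlo (SE 0.39 each) in the authors' deposited table, and Celsr1, another, by 0.88 in AThi (SE 0.20). Of 23 classical and other cadherins, 6 were in the tables, and Cdh23 was called higher in AThi than ATlo, by 1.74 (SE 0.41, adjusted p = 0.000863) by the authors' deposited table. Of 17 genes listed as neighbours of the clusters, 16 were in the tables. Hdac3, a histone deacetylase gene in that neighbourhood, was called lower in AThi than ATlo, with a log2 fold change of -0.89 (SE 0.23, adjusted p = 0.00379) by the authors' deposited table. edgeR called neither Cdh23 nor Hdac3 in that comparison (adjusted p = 0.0617 and 0.0958). Against young, the authors' deposited table also calls the classical cadherin Cdh4 higher in both fractions, by 6.16 in AThi and 5.26 in ATlo, and Cdh23 lower in ATlo, at -2.40. Among the listed neighbours, Diaph1, a formin that nucleates actin filaments, was higher than young by 0.58 in AThi and 0.47 in ATlo in the authors' deposited table. Taf7, a subunit of the general transcription factor TFIID, was at -0.86 and Hdac3 at 0.88 in ATlo against young, both called in the authors' deposited table. With edgeR the calls against young were lost for Taf7 (adjusted p = 0.101), Hdac3 (0.206) and Diaph1 in ATlo (0.0962), and for Celsr1 in AThi (0.0685).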

How the data were processed

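The submitters' processing notes name FastQC, MultiQC, STAR, featureCounts, DESeq2 and the build GRCm38; the sources used here do not state versions, annotation or strandedness. Each of the authors' 3 deposited contrast tables gives per gene the log2 fold change and SE, the Wald score, and the p-value before and after adjustment. The authors also deposited there a normalized signal for every library, here called the normalized count. An upstream-regulator table that the authors deposited has an activation score, the overlap p-value and the regulator's log2 ratio. Columns were matched to groups only, since their tags are not the labels' replicate numbers.

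Normalized counts were turned back into whole reads by dividing by what 1 read is worth in that library, and all values came out whole within 0.01. R 4.3.3 with DESeq2 1.42.0 and edgeR 4.0.16 (quasi-likelihood, TMM) served for refits of these reads. P-values were Benjamini-Hochberg adjusted over all genes, with a call at 0.05. Both fits were tested on simulated data. Python 3.11.15, pandas 2.3.3, numpy 2.4.6, scipy 1.17.1 and matplotlib 3.10.9 did the rest. Exons, coordinates and shared 50-base windows come from GENCODE M21 (GRCm38). The deposited test, which has no term for the mouse, is the main one. The pairing of AThi and ATlo comes from the labels, which call them paired, and from the shared tags; deviations of same-tag libraries correlated at 0.141, 0.116 and 0.291 over 15685 genes. Alternatives were edgeR settings, the replicate block, each library left out in turn, and, chosen after seeing the data, the 3 libraries tagged 12 left out and new DESeq2 size factors.

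The members and gene lists were chosen with earlier results of these data known. Values per library are given for the 4 members of highest base mean in each cluster, all called members and the C-type genes; Pcdhb12, Pcdhb4 and Gm26672 were added after their values were seen. No molecular identifiers are named in the sources used here, so floors cover counting error only. Per the labels, RNA came from 2 sort days; which library belongs to which day was not used here. Both old groups come from 3 mice and the young group has 2 libraries. The neural marker list is not reported here.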

Additional observations from a re-analysis of the deposited data

Results flagged for a closer look

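For 4 gamma genes the difference from young HSCs was not the same in both old fractions, by the authors' deposited test of AThi against ATlo, which tests that difference since both share the young libraries. The log2 fold change against young in AThi exceeded that in ATlo by 1.88 for Pcdhgb8, 1.83 for Pcdhgb7, 1.19 for Pcdhgb6 and 1.03 for Pcdhga10. In the authors' deposited table the values against young were 1.67 in AThi and -0.21 in ATlo for Pcdhgb8, 0.88 and -0.95 for Pcdhgb7, 0.22 and -0.97 for Pcdhgb6, and 0.52 and -0.51 for Pcdhga10. None of these 8 values was called on its own. The calls of the difference were lost with edgeR for all 4 genes.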

How the results depend on the processing

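Calls depended on the tool and on single libraries. Every AThi gamma sum lay above every ATlo gamma sum, so leaving out 1 library could not change the direction of that difference. The gamma sum was not fitted with any tool. Of the 35 genes, edgeR called 0 in each of the 3 comparisons with TMM, with RLE and without a filter. For AThi against ATlo, where the deposited test called 4, the replicate block gave 7 with DESeq2 and 0 with edgeR, and leaving out 1 library gave 1 to 6. For AThi against young (4 called) leaving out 1 library gave 3 to 6, and for ATlo against young (2 called) it gave 1 to 3. Without the 3 libraries tagged 12 the counts were 2, 1 and 1 for these comparisons in that order, with the lone young library assumed to vary like the others. New DESeq2 size factors and no independent filtering kept 4, 4 and 2. Without the libraries tagged 12, the log2 fold change turned to -0.10 for Pcdhgc4 in AThi against ATlo and to 0.58 for Pcdhgb4 in ATlo against young. Leaving out 1 library changed the sign of an uncalled log2 fold change for 6 of the 35 genes in AThi against ATlo, 8 in AThi against young and 13 in ATlo against young. Among the genes given by library, it changed the sign for Pcdhac2 (-2.05 to 4.37), Pcdhb17 (-0.16 to 1.82), Pcdhgb5 (-0.42 to 0.31) and Pcdhgb6 (-0.13 to 0.45) in AThi against young. It did so for Pcdhb16 (-0.30 to 0.12), Pcdhb18 (-0.54 to 0.79) and Pcdhgc4 (-0.11 to 0.31) in AThi against ATlo, and for Pcdhga5 (-0.36 to 0.54), Pcdhgb4 (-0.78 to 0.28) and Pcdhgb8 (-0.56 to 0.27) in ATlo against young. The cause was not tested. The summed gamma cluster stayed at a log2 ratio of 0.90 to 1.12 for AThi against ATlo when each library was left out, and the beta cluster at -0.19 to 0.06. Members with few reads, such as Pcdhac2, Pcdhb12 and Pcdhb13, have the widest errors.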
